A study of Mus musculus with 6 samples.

Results

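The genes described here build, fold and clear proteins of the endoplasmic reticulum (ER), the compartment in which antibodies and other secreted and surface proteins are made. The set comprised 46 genes, taken by symbol from a list of ER chaperones, disulfide isomerases, translocation subunits, degradation factors and stress sensors, and all 46 had a row among the 14864 genes of the deposited table. RNA came from marginal zone B cells flow-sorted from spleens of C57BL/6 mice at 8 weeks of age, in 3 libraries labelled wild type (WT) and 3 labelled cKO, a conditional knockout of CK2α, which is a catalytic subunit of the protein kinase CK2. The comparison of the groups asks which transcripts differ where CK2α is deleted. Which Cre drives the deletion, which exons it removes and how the cells were gated were not found in the sources used. Nothing in the labels ties a library to a mouse of its own, and the spread behind each p-value may therefore be technical.

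Proteins enter the ER through the Sec61 channel, lose their signal peptide, receive sugar chains and are folded by the chaperone BiP, by lectins that read those sugars and by enzymes that form disulfide bonds. Molecules that fail to fold are pulled back to the cytosol and destroyed, a route called ER-associated degradation. When unfolded protein accumulates, the sensors IRE1, ATF6 and PERK raise transcription of many of these genes, the unfolded protein response, which plasma cells use to expand the ER for antibody secretion. Marginal zone B cells are known for turning into plasma cells faster than follicular B cells do. CK2 itself phosphorylates the ER proteins calnexin and Sec63, a layer that RNA does not show.

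Values are normalised reads, the deposited counts divided by the authors' factor for each library, at 18778776 to 23503756 recovered reads a library. Each row of values runs over replicates 1, 2 and 3. A difference is cKO minus WT in log2(value + 1), with its standard error, and a gene rose or fell only where limma's adjusted p over all 14855 genes tested was under 0.05. Csnk2a1, the gene of CK2α, gave 4069, 3861 and 3939 in the WT libraries and 4124, 3951 and 4060 in those labelled cKO, a difference of 0.03 ± 0.05 (adjusted p = 0.734). A count over the whole gene does not resolve deleted exons, and directions below rest on the library labels. No pair of libraries was a duplicate (chi-square of 6.45 to 12.8 per gene within groups). Pan-B genes such as Cd79a, at 34965 ± 2184 and 34756 ± 2979 (mean ± SD, n = 3 each), and marginal zone genes such as Cr2, at 65812 ± 2121 and 69586 ± 8713, were abundant in both groups. The T cell genes Cd3d, Cd3e, Cd3g, Trac and Thy1 had no row in the table. The lowest total of any gene in it was 61 recovered reads over the 6 libraries, so a missing row does not show absence. All 9 myeloid markers had a row, with sums of 1396, 2164 and 1501 in WT and 2151, 1383 and 1399 in cKO.

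Of the 46 ER genes, 2 rose and 3 fell in cKO, where 5.08% and 4.97% of all genes tested did. Together these 5 were 10.9% of the set, against 10.1% of all genes, so the share of ER genes called lay near the background. The disulfide isomerase gene Pdia4 and the degradation gene Edem1 rose, and the cochaperone gene Dnajb9, the isomerase gene Txndc5 and the ubiquitin ligase gene Syvn1 fell. The median difference of the set was 0.065, beside -0.0009 over all genes. The median size of the difference regardless of sign was 0.095, against 0.156 over all genes, and 0 of the 46 differed by a factor of 1.5 or more. These medians were not matched for level, and 45 of the 46 lay above the WT median per kilobase of all genes. For 31 of the 46 the 95% interval of the ratio of cKO to WT lay within 0.8 to 1.25. The groups did not overlap for 17 genes, 12 higher and 5 lower in cKO, which is 37.0% of the set against 31.6% of all genes (15.9% higher and 15.6% lower). At an unadjusted p under 0.05, limma gave 14 of the 46 and 3983 of all genes.

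Levels of different genes were compared per kilobase of annotated exon. On that scale Pdia4 stood highest of the set, at 9580 in WT and 13300 in cKO normalised reads per kilobase, and ranked at place 81 among 14799 genes with a length in WT. Hspa5 followed at 4040 in WT and 3810 in cKO per kilobase, then Calr at 3440 in WT and 3440 in cKO and Hsp90b1 at 3160 in WT and 3410 in cKO. The per-library ranges of Hspa5 (3430 to 4300), Calr (2960 to 4010) and Hsp90b1 (2940 to 3950) overlapped, so these 3 chaperones were not ordered beyond their spread, while the lowest Pdia4 library, at 9370, lay above all of theirs. The sensor gene Ern1 stood lowest at 55.7 in WT and 63.6 in cKO per kilobase, and Derl3 next at 118 in WT and 113 in cKO. Of the 46, 45 lay above the WT median of all genes, 115 per kilobase.

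**Figure D1:**
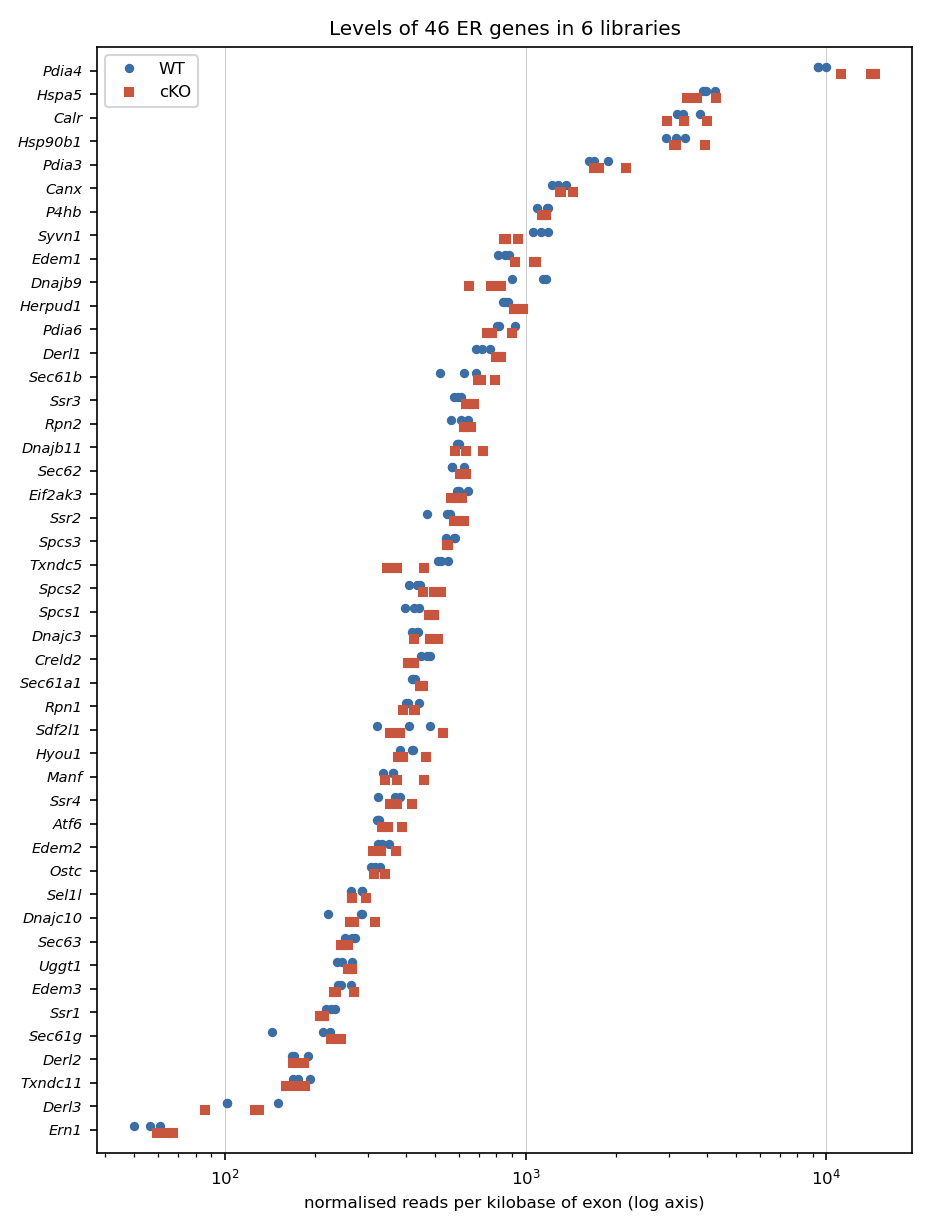
Normalised reads per kilobase of exon (log axis) for the 46 ER genes, ordered by their mean, with 1 point for each WT library (circles) and each cKO library (squares). Pdia4 stands alone at the top, from 9370 to 14500, followed by Hspa5, Calr and Hsp90b1, whose points overlap.

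Among the chaperones of the ER lumen and their cochaperones, 1 of 10 fell and 0 rose, beside 4.97% and 5.08% of all genes. Dnajb9 (ENSMUSG00000014905) encodes ERdj4, a J-domain partner of BiP that restrains IRE1 and is itself a target of the IRE1 branch. Its normalised reads were 2972, 2302 and 2911 in the WT libraries and 1957, 1654 and 2117 in those labelled cKO. All 3 cKO values lay below all 3 WT values, and WT replicate 2 was the lowest of the WT libraries. The difference was -0.51 ± 0.11, a ratio of 0.701 (95% interval 0.595 to 0.826), with an adjusted p of 0.0166. The call was lost without WT replicate 1 (adjusted p = 0.0779) or WT replicate 3 (0.0766), in a range of 5.79e-05 to 0.685 over the alternatives. Immediate early genes, induced within minutes of stimulation or tissue handling, had the same low WT library: their sum over the 13 of 14 with a row was 69387 in WT replicate 2, 88758 and 85873 in the other WT libraries and 53355 to 54347 in cKO. Of these 13 genes 8 fell, beside 4.97% of all genes. WT replicate 2 also had the lowest WT sum of heat shock genes. The same held for markers of plasma, germinal centre, T and marginal zone B cells, but not for pan-B, follicular or myeloid markers. The part of the immediate early programme in the fall of Dnajb9 was not tested.

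The central chaperones did not pass. Hspa5 (ENSMUSG00000026864), which encodes BiP, the Hsp70 of the ER, gave 17997, 16798 and 16414 in the WT libraries and 18174, 14509 and 15703 in those labelled cKO. The groups overlapped, with cKO replicate 1 above every WT library and cKO replicates 2 and 3 below them, and the difference was -0.09 ± 0.08 (adjusted p = 0.529), a ratio of 0.941 (95% interval 0.833 to 1.06). Hsp90b1 (ENSMUSG00000020048), which encodes Grp94, the ER member of the Hsp90 family and a folding factor of Toll-like receptors and integrins, gave 13700, 12725 and 11852 in the WT libraries and 15931, 12730 and 12541 in those labelled cKO. The groups overlapped, with cKO replicate 1 standing above the other 5 libraries, and the difference was 0.10 ± 0.09 (adjusted p = 0.523). Hyou1, a nucleotide exchange factor for BiP, gave 3035, 3043 and 2767 in the WT libraries and 3363, 2836 and 2726 in those labelled cKO, a difference of 0.01 ± 0.08. The 95% interval of its ratio was 0.892 to 1.14.

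The other partners of BiP were not called. Dnajb11 (ERdj3) gave 1930 ± 20.3 and 2098 ± 226 (mean ± SD, WT then cKO), a difference of 0.11 ± 0.07, and Sdf2l1, which acts with ERdj3, gave 448 ± 89.3 and 470 ± 106, a difference of 0.06 ± 0.17. Dnajc3, which encodes the cochaperone p58IPK, gave 2216 ± 58.5 and 2431 ± 223 (0.13 ± 0.07), and Dnajc10, which encodes the disulfide reductase ERdj5, gave 1315 ± 182 and 1408 ± 148 (0.10 ± 0.10). Manf, a BiP-binding factor that stressed cells secrete, gave 1243 ± 51.9 and 1382 ± 217 (0.14 ± 0.10). Creld2, an ER-stress gene with isomerase-like motifs, was the exception in direction, at 614, 657 and 643 against 556, 573 and 585. Its groups did not overlap, all cKO values being lower, but the difference of -0.16 ± 0.07 missed the threshold (adjusted p = 0.183). Adjusted p values of the 6 genes ranged from 0.183 for Creld2 to 0.847 for Sdf2l1.

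The lectin cycle, in which Calr and Canx hold glycoproteins and Uggt1 sends misfolded ones back to them, had 0 of 3 genes called. This held for limma, edgeR and DESeq2, beside 10.1% of all genes called in limma. At an unadjusted p under 0.05 limma gave 0 of the 3. Calr (calreticulin) gave 9587, 10918 and 9177 in the WT libraries and 11542, 9692 and 8521 in those labelled cKO, and the highest and lowest of the 6 values were both from cKO libraries. Its difference was -0.0037 ± 0.10, a ratio of 0.997 (95% interval 0.855 to 1.16). Canx (calnexin, the membrane-bound lectin and a CK2 substrate) gave 6036, 6401 and 5729 in the WT libraries and 6720, 6096 and 6145 in those labelled cKO, with overlapping groups and a difference of 0.06 ± 0.06 (adjusted p = 0.561). Uggt1 gave 3408, 3146 and 3023 in the WT libraries and 3395, 3311 and 3397 in those labelled cKO, also overlapping (0.08 ± 0.06, adjusted p = 0.412).

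Of 6 disulfide isomerase genes 1 rose and 1 fell, beside 5.08% and 4.97% of all genes. Pdia4 (ENSMUSG00000025823), which encodes ERp72, gave 22468, 22486 and 24017 in the WT libraries and 34844, 26923 and 33834 in those labelled cKO. Every cKO library lay above every WT library, and cKO replicate 2 was the lowest of the cKO values. The difference was 0.46 ± 0.09, a ratio of 1.38 (95% interval 1.2 to 1.58), with an adjusted p of 0.0127. The call was lost without WT replicate 1 (adjusted p = 0.0531) or cKO replicate 3 (0.0614), in a range of 3.96e-06 to 0.702.

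Txndc5 (ENSMUSG00000038991), which encodes the thioredoxin-domain isomerase ERp46, abundant in plasma cells, moved the other way, with 2304, 2481 and 2347 in the WT libraries and 1554, 2066 and 1673 in those labelled cKO. All cKO values were lower, cKO replicate 2 being the nearest to WT. The difference was -0.44 ± 0.09, a ratio of 0.737 (95% interval 0.641 to 0.848), with an adjusted p of 0.0164. The call was lost without WT replicate 1 (adjusted p = 0.0531), WT replicate 3 (0.0615) or cKO replicate 3 (0.0657), in a range of 0.000355 to 0.605. Exons of Txndc5 overlap those of Bmp6 (5.0% of their length) and Gm31834 (6.9%) on the opposite strand, neither of which had a row. The other isomerase genes were not called. Pdia3 (ERp57), which works with the lectins and in loading of MHC class I, gave 5101, 5918 and 5302 in the WT libraries and 6768, 5311 and 5522 in those labelled cKO, and cKO replicate 1 again stood highest. P4hb, the founding protein disulfide isomerase, gave 3116, 3390 and 3377 in the WT libraries and 3334, 3298 and 3236 in those labelled cKO, a ratio of 0.999 (95% interval 0.92 to 1.08). Pdia6 gave 3050, 3444 and 3009 in the WT libraries and 3365, 2892 and 2786 in those labelled cKO, with overlapping groups. Their differences were 0.10, -0.0013 and -0.07, and that of Txndc11, a thioredoxin-like partner of EDEM proteins, at 1574 ± 107 and 1519 ± 110, was -0.05 (adjusted p = 0.498, 0.99, 0.595 and 0.699).

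**Figure D2:**
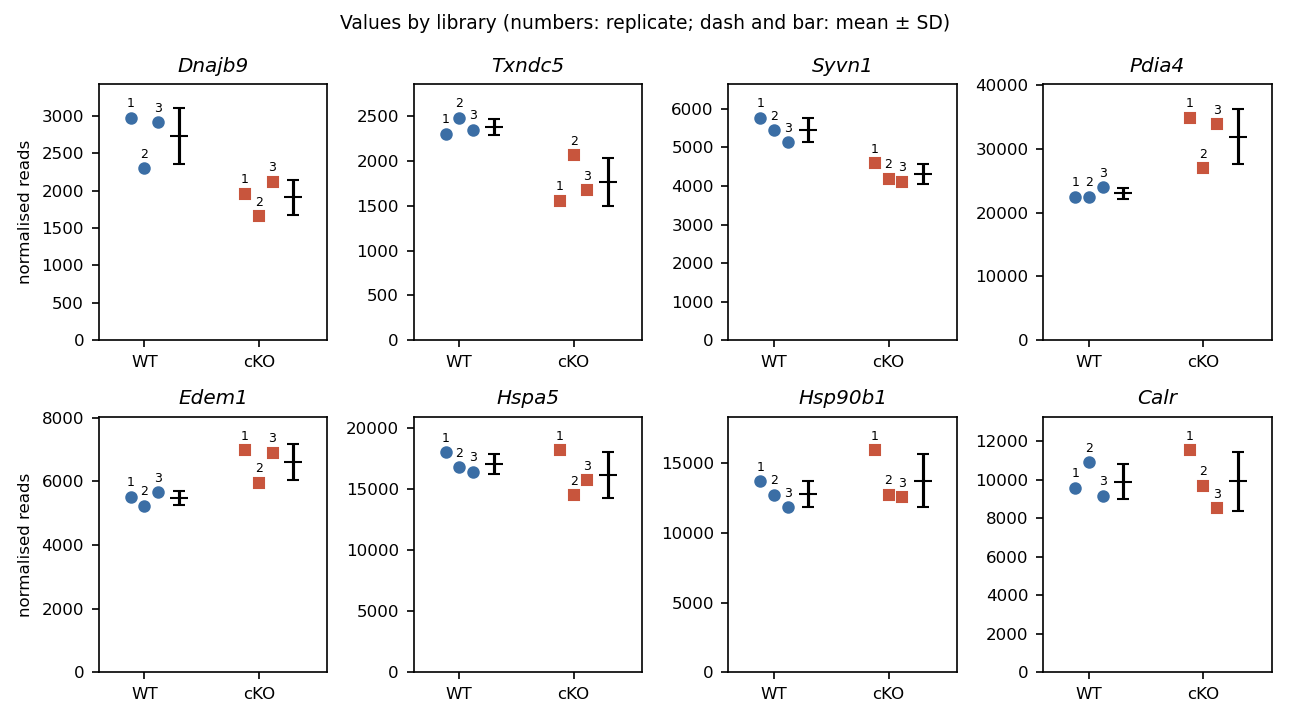
Normalised reads in each library for the 5 ER genes that rose or fell and for the chaperone genes Hspa5, Hsp90b1 and Calr, with WT as circles, cKO as squares, replicate numbers above the points, and mean ± SD (n = 3) beside them. The groups are apart for Dnajb9, Txndc5, Syvn1, Pdia4 and Edem1 and overlap for the 3 chaperone genes.

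Marker genes of B cell subsets differed along with these isomerases. Of 10 marginal zone markers 5 rose, beside 5.08% of all genes, and their sum was 124243 to 136144 in WT and 159430, 128913 and 159918 in cKO. Of 7 follicular B cell markers 3 fell, beside 4.97% of all genes, with a sum of 78020 to 83753 in WT and 65256, 77366 and 62848 in cKO. In both sums cKO replicate 2 was the cKO library nearest to WT, as it was for Pdia4, Edem1 and Txndc5. For Dnajb9 that library was the farthest from WT, and for Syvn1 cKO replicate 1 was the nearest. Germinal centre markers (3 of 7 fell) summed to 922 to 1657 in WT and 555 to 913 in cKO, and the T cell markers with a row (1 of 3 fell) to 627 to 723 and 321 to 462. Each of these sums is mostly a single gene. Bcl6 alone gave 1056, 593 and 785 in WT and 325, 562 and 355 in cKO. Lck alone gave 686, 592 and 614 in WT and 298, 441 and 368 in cKO. The sums therefore do not show how many germinal centre or T cells were present. The part of these marker genes in the results on the ER genes was not tested.

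In bulk RNA, fewer cells of a type and less RNA per cell cannot be told apart, and plasma cells are the cell type in which several of these genes are most abundant. Of 15 plasma cell marker genes, 14 had a row, 4 fell (Irf4, Slamf7, Ighg2b and Ighg2c) and 1 rose (Ighg3), beside 4.97% and 5.08% of all genes. Their sum was 17094 to 21334 in WT and 14319 to 16474 in cKO. Of the 14, 10 had a difference below 0 and 4 above it. The defining marker Tnfrsf17 had no row. Sdc1 stood at 94.4, 66.4 and 87.1 against 28.5, 133 and 64 and Jchain at 373, 241 and 199 against 154, 221 and 136, neither called. Prdm1, Tnfrsf13b and Eaf2 went the other way, also uncalled, at WT and cKO means of 126 and 137, 4854 and 5106, and 154 and 168. Irf4, Xbp1, Slamf7, Tnfrsf13b and Eaf2 are also expressed by B cells, and Irf4 alone gave 10152, 6740 and 11322 against 5122, 5174 and 6693. The sums by library were 19973, 17094 and 21334 in WT and 15372, 14319 and 16474 in cKO. What remains of these sums without Irf4 overlaps between the groups. A score over the 14 markers separated the groups, at 0.062 to 0.434 in WT and -0.319 to -0.145 in cKO. It is the mean of their log2 values and so weighs genes with few and with many reads alike. The largest differences in it were those of Ighg2c (-1.72) and Igha (-1.23), at WT means of 97.4 and 316. Since 5 of the 14 were called between these same groups, the separation was partly set beforehand. With that score as a covariate, 8 of all genes tested and 0 of the 46 ER genes were called, and the differences of Txndc5, Dnajb9, Pdia4, Edem1 and Syvn1 were -0.49, -0.472, 0.363, 0.243 and -0.132, that of Syvn1 having been -0.34 without the score. The score and the genotype cannot be told apart in these 6 libraries.

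Of the 9 genes of the translocation channel and its partners, limma, edgeR and DESeq2 each called 0, beside 10.1% of all genes in limma. Groups did not overlap for 6 of the 9, 5 of them higher in cKO, beside 31.6% of all genes not overlapping and 15.9% higher. In limma 3 of the 9 had an unadjusted p under 0.05, beside 3983 of all 14855 genes, a share near the background. Sec61a1, the pore of the channel, gave 2834, 2887 and 2830 in the WT libraries and 2990, 3058 and 3025 in those labelled cKO, a small gap with every cKO value higher (0.09 ± 0.05, adjusted p = 0.288). Of its small subunits, Sec61b stood at 662, 869 and 792 against 885, 1005 and 901 and Sec61g stood at 352, 549 and 523 against 585, 600 and 555 (differences of 0.27 ± 0.10 and 0.31 ± 0.14, adjusted p = 0.108 and 0.188). In both, WT replicate 1 was the lowest library, and without it the differences were 0.162 and 0.113. The same library had the highest sum of 11 cytosolic and mitochondrial heat shock genes, 143319 against 84445 to 109448 in the other libraries. The part of that in these differences was not tested. With the replicate number as a block, Sec61b passed (adjusted p = 0.0486), in a range of 0.0486 to 0.991 over the alternatives.

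Sec62, which helps short precursors into the channel, gave 2468, 2480 and 2706 in the WT libraries and 2742, 2685 and 2625 in those labelled cKO, with overlapping groups (0.07 ± 0.06). Sec63, a J-domain partner of BiP at the channel and a CK2 substrate, gave 2310 ± 89.5 and 2189 ± 69.1 (-0.08 ± 0.06, adjusted p = 0.406). Of the translocon-associated protein complex, Ssr3 gave 2418, 2481 and 2541 in the WT libraries and 2815, 2643 and 2728 in those labelled cKO, with every cKO value higher (0.14 ± 0.05, adjusted p = 0.124). Ssr2 was higher in each cKO library too (0.19 ± 0.08, adjusted p = 0.136), Ssr1 was lower in each (-0.09 ± 0.05, adjusted p = 0.285) and Ssr4 overlapped (0.10 ± 0.08). Their means were 979 ± 89.6 and 1116 ± 40.9 for Ssr2, 2346 ± 84.1 and 2198 ± 37 for Ssr1 and 1109 ± 93.1 and 1185 ± 102 for Ssr4.

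Signal peptidase, which removes signal peptides, had 0 of 3 subunit genes called by limma, edgeR or DESeq2, beside 10.1% of all genes in limma. In limma 2 had an unadjusted p under 0.05, beside 3983 of all 14855 genes. Spcs1 gave 617, 685 and 661 in the WT libraries and 770, 763 and 741 in those labelled cKO and Spcs2 gave 1726, 1832 and 1882 in the WT libraries and 2101, 2205 and 1919 in those labelled cKO. Both were higher in every cKO library, with differences of 0.21 ± 0.07 and 0.19 ± 0.07 that stayed short of the threshold (adjusted p = 0.0807 and 0.0884). Spcs3 gave 1890, 2009 and 2020 in the WT libraries and 1921, 1909 and 1905 in those labelled cKO, with overlapping groups (-0.04 ± 0.05). The oligosaccharyltransferase, which attaches N-linked sugar chains, had 0 of 3 called by these tools as well, beside the same 10.1%. At an unadjusted p under 0.05 limma gave 0 of them. Rpn1 gave 1830, 1988 and 1800 in the WT libraries and 1942, 1918 and 1771 in those labelled cKO, a ratio of 1 (95% interval 0.911 to 1.1). Rpn2 gave 2513, 2853 and 2710 in the WT libraries and 2928, 2760 and 2760 in those labelled cKO and Ostc gave 871, 905 and 841 in the WT libraries and 934, 937 and 863 in those labelled cKO, and in both the groups overlapped (0.07 ± 0.06 and 0.06 ± 0.07). Of the exons of Spcs1, 16.3% overlap those of Glt8d1 on the opposite strand, and without a stated strand setting reads of the pair cannot be told apart. Other genes of the set have such overlaps too, the largest being 12.8% for Ssr2, 11.7% for Sec62 and 10.3% for Hsp90b1.

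**Figure D3:**
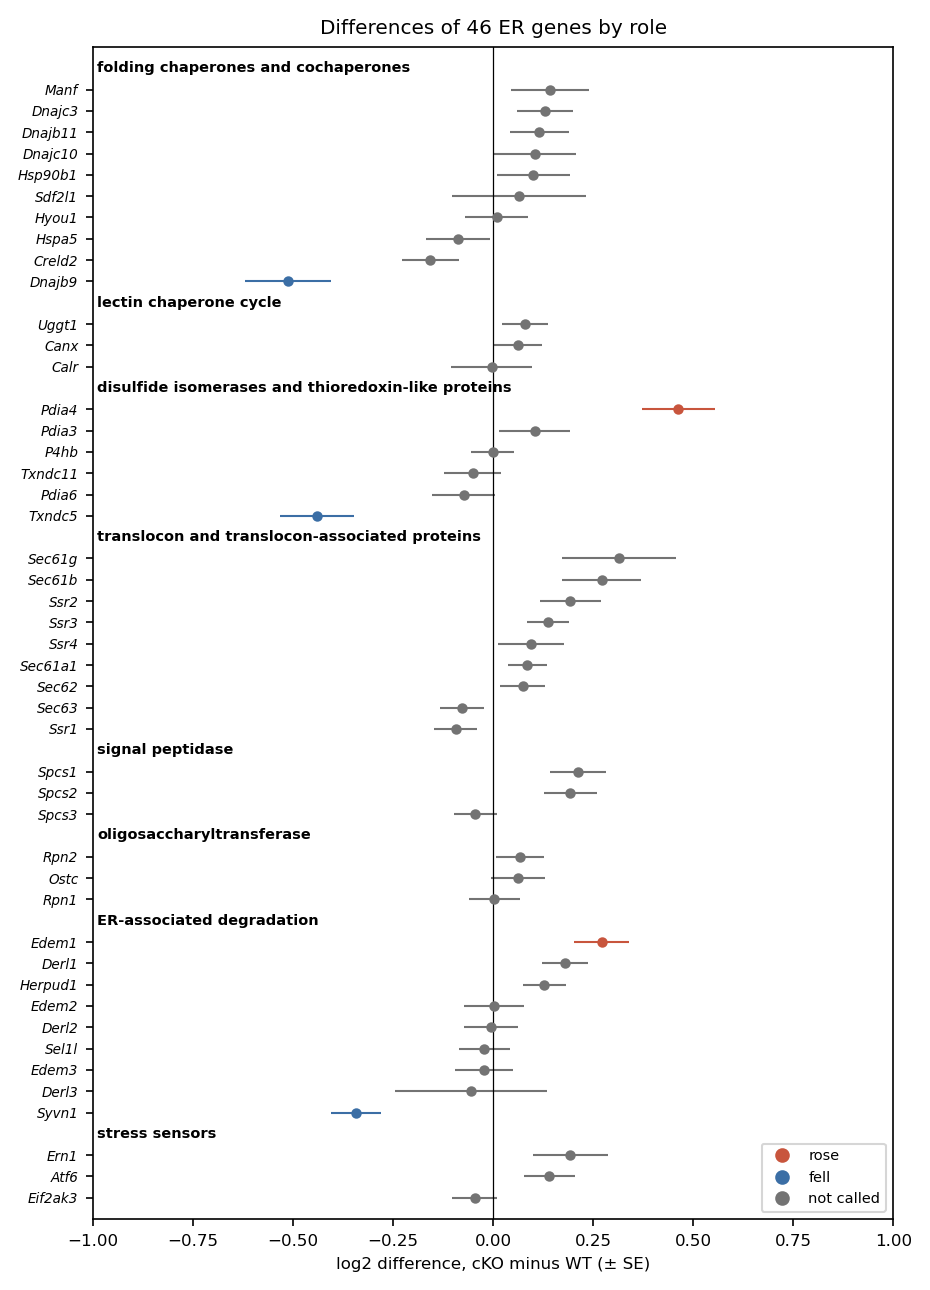
Log2 difference (cKO minus WT) with its standard error for each of the 46 ER genes, grouped by role, with genes that rose in red, genes that fell in blue and the others in grey. The 5 called genes lie between -0.51 and 0.46, in 3 of the 8 role groups.

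ER-associated degradation had 1 of 9 genes rising and 1 falling, beside 5.08% and 4.97% of all genes. Syvn1 (ENSMUSG00000024807) encodes Hrd1, the membrane ubiquitin ligase at the centre of the pathway. It gave 5769, 5450 and 5137 in the WT libraries and 4595, 4193 and 4115 in those labelled cKO. The groups were well apart, the highest cKO value being below the lowest WT value. The difference was -0.34 ± 0.06, a ratio of 0.789 (95% interval 0.717 to 0.868), with an adjusted p of 0.00944, and it was called without each library in turn (adjusted p of at most 0.0492), but not with the plasma cell score as a covariate (-0.13, adjusted p = 0.808). The fit with that score called 8 of all genes, and the score cannot be told apart from the genotype. Its exons share 91 bases, 1.9% of their length, with Mrpl49 on the opposite strand. Sel1l, the partner that holds Hrd1 in its complex, gave 2445, 2252 and 2453 in the WT libraries and 2516, 2259 and 2271 in those labelled cKO. The groups overlapped and the difference was -0.02 ± 0.06, a ratio of 0.985 (95% interval 0.895 to 1.08).

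Edem1 (ENSMUSG00000030104), which trims mannose from misfolded glycoproteins to mark them for degradation, rose, with 5519, 5230 and 5665 in the WT libraries and 6981, 5960 and 6904 in those labelled cKO. Every cKO library lay above every WT library, cKO replicate 2 by the least. The difference was 0.27 ± 0.07, a ratio of 1.21 (95% interval 1.09 to 1.34), with an adjusted p of 0.0314. The call was lost without WT replicate 1 (adjusted p = 0.0871), WT replicate 2 (0.0884), WT replicate 3 (0.0785), cKO replicate 1 (0.0858) or cKO replicate 3 (0.121), in a range of 0.0038 to 0.739. Its relative Edem2 had means of 1163 ± 48 and 1167 ± 104 in WT and cKO, a difference of 0.0026 ± 0.07 (adjusted p = 0.987). Edem3 had means of 1582 ± 80.2 and 1559 ± 138, a difference of -0.02 ± 0.07 (adjusted p = 0.873). The difference between Edem1 and its relatives was not tested.

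The remaining degradation genes were not called. Derl1, of the channel-like derlin family, gave 2286, 2382 and 2533 in the WT libraries and 2724, 2655 and 2770 in those labelled cKO, with every cKO value higher (0.18 ± 0.06, adjusted p = 0.0678). Herpud1, a scaffold of the Hrd1 complex and a marker of ER stress, gave 2042, 1994 and 1966 in the WT libraries and 2157, 2278 and 2125 in those labelled cKO. Its groups did not overlap, but the difference of 0.13 ± 0.05 missed the threshold (adjusted p = 0.16). Derl2 gave 1413 ± 93.7 and 1407 ± 60.3 (-0.01 ± 0.07). Derl3, the derlin most tied to secretory cells, was the gene with the fewest normalised reads of the set, at 202, 203 and 299 against 258, 171 and 250. Its ratio of 0.963 (95% interval 0.721 to 1.29) had a wide interval, so a change of moderate size was not detectable at this depth and spread.

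Of the 3 sensors, limma, edgeR and DESeq2 called 0, beside 10.1% of all genes in limma. An unadjusted p under 0.05 in limma was met by 1 of the 3, beside 3983 of all 14855 genes. Ern1, which encodes IRE1α, gave 496, 408 and 462 in the WT libraries and 485, 548 and 526 in those labelled cKO, with the groups overlapping (0.19 ± 0.09, adjusted p = 0.215). Atf6 gave 2960, 3013 and 2984 in the WT libraries and 3225, 3079 and 3593 in those labelled cKO, with every cKO value higher (0.14 ± 0.06, adjusted p = 0.177). Eif2ak3, which encodes PERK, gave 3877, 3559 and 3616 in the WT libraries and 3584, 3706 and 3409 in those labelled cKO (-0.05 ± 0.06, adjusted p = 0.648). With 3 libraries against 3, the exact two-sided permutation test on a single gene cannot go below p = 0.1, and it gave 0.1 for each of the 5 called genes.

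Of 19 factors that act with the sensors or after them, 3 fell and 1 rose, beside 4.97% and 5.08% of all genes. Ppp1r15a, a phosphatase subunit that reverses the translational block set by PERK, gave 8919, 7661 and 9362 in the WT libraries and 5998, 5410 and 6093 in those labelled cKO, with all cKO values lower (-0.56 ± 0.08, adjusted p = 0.00239). Atf4, the factor translated when PERK or related kinases are active, gave 5496, 5485 and 5636 in the WT libraries and 4607, 4853 and 4741 in those labelled cKO, also without overlap (-0.23 ± 0.05, adjusted p = 0.0194). Its call was lost without WT replicate 3 (adjusted p = 0.0847), cKO replicate 1 (0.0555) or cKO replicate 3 (0.0703), in a range of 0.00473 to 0.554. Atf3, outside the naming rule and named after its values were seen, was the third to fall (917, 493 and 665 against 426, 251 and 470). It is also an immediate early gene. Its adjusted p was 0.0472 in limma, 0.119 by DESeq2, 0.216 with robust moderation and 0.0502 with a minimum mean of 100, and the call was lost without any 1 library other than WT replicate 2 (adjusted p = 0.0504 to 0.184), in a range of 0.00518 to 0.887.

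Cebpb, a transcription factor that ATF4 can induce, rose instead, with 730, 649 and 636 against 1050, 937 and 914 (0.53 ± 0.08, adjusted p = 0.00429). Exons of Cebpb overlap those of Tmem189 on the opposite strand over 20.7% of their length. Xbp1, whose message IRE1 splices, gave 2128, 2088 and 1874 in the WT libraries and 2267, 1746 and 1852 in those labelled cKO, with overlapping groups and a difference of -0.06 ± 0.09 (adjusted p = 0.721). A count per gene does not show splicing. Ddit3, which encodes the stress factor CHOP, gave 671, 482 and 647 in the WT libraries and 482, 455 and 492 in those labelled cKO. WT replicate 2 lay within the range of the cKO values, and the difference of -0.32 ± 0.12 was not called (adjusted p = 0.113). Without that library Ddit3 was called, with a difference of -0.467 (adjusted p = 0.016), in a range of 0.016 to 0.917 over the alternatives.

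Of the wider list of 108 other ER genes, these factors included, 102 had a row, and 6 rose and 4 fell, which is 9.8% against 10.1% of all genes. In targeting and translocation 3 of 15 rose and 1 fell, beside 5.08% and 4.97% of all genes. Srp72 and Srp19, protein subunits of the signal recognition particle, rose, from 2848 ± 121 to 3284 ± 54.7 and from 762 ± 49.2 to 917 ± 42.3 in turn (WT to cKO, mean ± SD), differences of 0.21 ± 0.05 and 0.27 ± 0.07 (adjusted p = 0.0356 and 0.0434). The call of Srp19 was lost when values were rescaled without immunoglobulin genes (adjusted p = 0.0501) and with the replicate block (0.0528), in a range of 0.0349 to 0.809. Mzb1, a BiP-associated protein that is abundant in marginal zone B cells, rose by 0.24 ± 0.07 (adjusted p = 0.0465) and was likewise named after its values were seen. Its call was lost when values were rescaled without immunoglobulin genes (adjusted p = 0.0608), in a range of 0.0181 to 0.978. Tram2, a translocation-associated membrane protein, fell, with 485, 452 and 469 against 211, 386 and 276 (-0.73 ± 0.17, adjusted p = 0.0253). Cnpy3, which acts with Grp94 in folding Toll-like receptors, rose from 3032 ± 99.9 to 3541 ± 56 (0.22 ± 0.05, adjusted p = 0.0228), and Vcp, the ATPase that extracts proteins from the ER membrane for degradation, from 5406 ± 285 to 6404 ± 103 (0.25 ± 0.05, adjusted p = 0.0211). Of 16 glycosylation genes and 18 genes of transport out of the ER and retrieval to it, limma, edgeR and DESeq2 called 0. In limma 3 and 2 of them had an unadjusted p under 0.05, beside 3983 of all 14855 genes. Of the 10 calls in these lists, those of Ppp1r15a and Cebpb held without each library in turn. The other 8 were lost without WT replicate 3 and without cKO replicate 3, and 3 calls in all were left without WT replicate 1 and 3 without cKO replicate 1. The exons of Mzb1 overlap those of the annotated gene SPATA24 on the same strand over 57.2% of their length, and its difference was -0.025 with the plasma cell score as a covariate.

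Single libraries carried part of the pattern. cKO replicate 1 was the highest of the 6 libraries for 19 of the 46 genes, 41.3%, where it was highest for 20.1% of all genes. It was highest for 11 of the 19 chaperone, lectin and isomerase genes. Without it the median difference of the set was 0.017, and the log2 difference of Hsp90b1 was -0.011. WT replicate 1 was the lowest library for 16 of the 46, 34.8%, against 21.1% of all genes, among them Sec61b, Sec61g, Spcs1, Spcs2 and Ssr2.

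**Figure D4:**
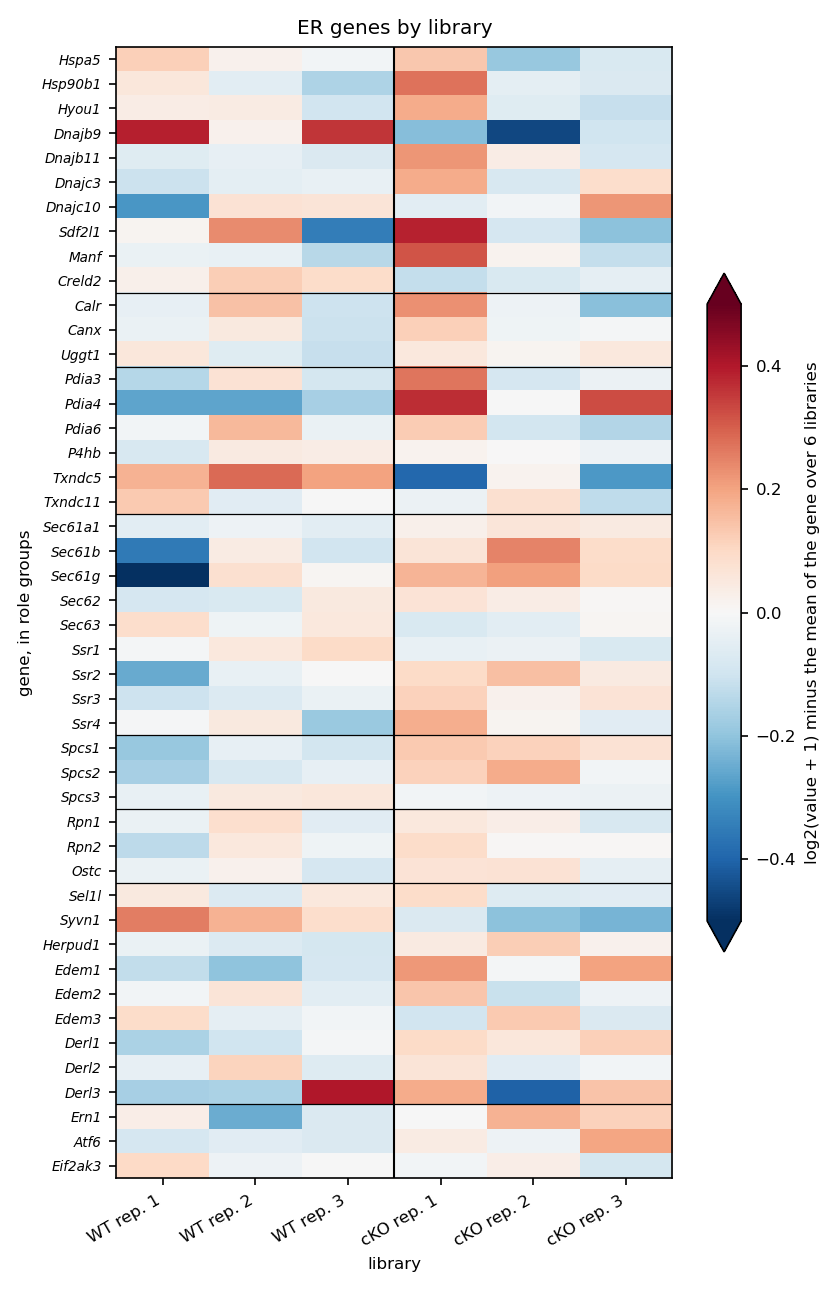
Log2(value + 1) of each of the 46 ER genes in each library, less the gene's mean over the 6 libraries, with genes in role groups and the colour scale running from -0.5 to 0.5. The 5 called genes show as rows that change colour between WT and cKO, and the chaperone rows of cKO replicate 1 are redder than those of the other cKO libraries.

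Promoters of many ER chaperone genes are known to carry the ER stress response element (ERSE), a CCAAT box and a CCACG site at a fixed distance, through which ATF6 and XBP1 act together with NF-Y. Windows from 250 bases before to 50 after the annotated start came from RefSeq (build GRCm38.p6) and matched 38 of the 46 genes by symbol. The exact motif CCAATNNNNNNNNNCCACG, searched on both strands, was found for 9 of the 38 (23.7%), against 37 of 27025 genes in the whole table (0.137%). The related ERSE-II motif ATTGGNCCACG was found for 2 more, Dnajb11 and Herpud1 (5.26%, against 0.0444% of all genes). The elements are shown because they mark the members with a textbook stress element. Each is written in the motif's own direction, with the CCAAT (or ATTGG) and CCACG parts in capitals.
Hspa5: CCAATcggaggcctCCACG
Hsp90b1: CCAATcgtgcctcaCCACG
Hsp90b1: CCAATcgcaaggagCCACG
Calr: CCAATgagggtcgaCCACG
Canx: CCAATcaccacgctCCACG
Pdia6: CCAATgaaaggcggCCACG
Dnajc3: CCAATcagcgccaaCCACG
Creld2: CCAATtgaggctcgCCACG
Derl3: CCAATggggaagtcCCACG
Syvn1: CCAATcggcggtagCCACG
Herpud1: ATTGGgCCACG
Dnajb11: ATTGGcCCACG

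The Hspa5 element lies at chr2:34772025-34772043 (+ strand), 46 bases before the annotated start, and that of Syvn1 at chr19:6046532-6046550 (+ strand), 25 bases before it. Hsp90b1 has 2 elements in its window, on opposite strands. Of the 11 genes with either element, Syvn1 was the 1 that was called, and it fell, while the other 10 had differences between -0.16 (Creld2) and 0.13 (Dnajc3 and Herpud1). The median difference was -0.004 over these 11 genes and 0.066 over the 27 with neither element, among which Pdia4 and Edem1 rose and Dnajb9 and Txndc5 fell. A match in letters is a description and not evidence that a factor binds there.

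The 250 bases before the start are given for the 5 called genes, since these are the promoters whose transcripts differed. Capitals mark CCAAT and CCACG in either direction and, in Txndc5, the motif TGACGTGG known as the unfolded protein response element, which holds CCACG on its other strand. Pdia4 lies at chr6:47813513-47813762 (- strand), Edem1 at chr6:108828391-108828640 (+ strand), Dnajb9 at chr12:44210069-44210318 (- strand), Syvn1 at chr19:6046326-6046575 (+ strand) and the annotated Txndc5 start that holds the motif at chr13:38527915-38528164 (- strand), all in GRCm38.p6 and written 5′ to 3′ on the gene's strand.
Pdia4: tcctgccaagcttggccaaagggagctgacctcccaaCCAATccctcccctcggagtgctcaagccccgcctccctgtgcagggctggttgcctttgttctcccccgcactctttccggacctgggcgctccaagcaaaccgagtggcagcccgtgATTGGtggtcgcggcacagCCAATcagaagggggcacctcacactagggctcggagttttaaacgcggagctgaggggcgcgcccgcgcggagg
Edem1: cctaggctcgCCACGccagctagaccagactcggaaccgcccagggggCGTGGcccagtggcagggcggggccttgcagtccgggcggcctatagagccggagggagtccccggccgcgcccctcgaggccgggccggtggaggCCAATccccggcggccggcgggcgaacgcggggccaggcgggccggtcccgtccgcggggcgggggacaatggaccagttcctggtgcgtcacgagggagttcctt
Dnajb9: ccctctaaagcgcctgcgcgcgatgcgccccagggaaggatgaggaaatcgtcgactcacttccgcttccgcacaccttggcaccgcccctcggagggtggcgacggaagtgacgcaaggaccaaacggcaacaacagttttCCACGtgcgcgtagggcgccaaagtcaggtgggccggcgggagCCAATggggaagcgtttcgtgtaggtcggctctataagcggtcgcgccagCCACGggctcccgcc
Syvn1: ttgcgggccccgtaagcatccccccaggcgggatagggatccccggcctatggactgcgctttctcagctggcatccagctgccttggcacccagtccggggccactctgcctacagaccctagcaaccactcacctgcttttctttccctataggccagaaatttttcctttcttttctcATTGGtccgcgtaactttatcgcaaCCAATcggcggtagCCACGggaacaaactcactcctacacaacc
Txndc5: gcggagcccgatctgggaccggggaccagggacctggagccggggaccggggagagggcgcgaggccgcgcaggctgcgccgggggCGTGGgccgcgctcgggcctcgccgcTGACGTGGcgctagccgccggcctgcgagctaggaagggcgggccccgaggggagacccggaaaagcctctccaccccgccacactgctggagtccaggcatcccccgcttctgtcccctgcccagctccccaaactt

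The CCAAT and CCACG letters by themselves are common, found in at least 1 window of 41.1% and 35.5% of all genes and of 73.7% and 76.3% of the 38 genes of this set. The Pdia4 stretch holds 3 CCAAT boxes and no CCACG, and that of Dnajb9 holds 1 CCAAT and 2 CCACG. Edem1 has 1 CCAAT and 2 CCACG too, and its stretch is 76.0% G and C. The spacing of the exact ERSE is met in the Syvn1 stretch. TGACGTGG was found in the windows of 2 of the 38 genes, Txndc5 and Txndc11, and for 0.714% of all genes. Txndc5 has other annotated starts, and the stretch printed was chosen because it holds the motif. The stretches before those starts, chr13:38528485-38528734 and chr13:38528825-38529074, hold neither TGACGTGG nor CCAAT.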

How the data were processed

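Per the submitters' processing notes, the tools included bcl2fastq 2.17, Trimmomatic 0.36 and STAR 2.5.2b, and mm9 is the build named. How reads were counted, with which annotation and strand setting, and what set the scale was not found in the sources used. The values deposited by the authors are a signal: in each library 100.0% were whole multiples, within 0.02 of a read, of the value of 1 read (0.8914 to 1.0981), so read counts had been divided by 1 factor per library and could be recovered.

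GENCODE M21 named 14808 of the 14864 identifiers and gave exon lengths with all isoforms merged, though it is not of the build named. Differences were tested on log2(value + 1) with limma 3.58.1 in R 4.3.3, using lmFit and then eBayes with a trend, two-sided, genotype being the one term. The 14855 genes with a mean of at least 10 entered, and p-values were adjusted by Benjamini-Hochberg. The code was checked on simulated counts. Alternatives were pseudocounts of 0.5 and 5, no filter, a minimum mean of 100, rescaling without immunoglobulin genes, robust moderation, a replicate block, a plasma cell score over 14 markers, each library left out, and edgeR 4.0.16 (quasi-likelihood) and DESeq2 1.42.0 on recovered reads. Genes given library by library are those called and, in each role group, up to 3 others with the highest mean. Of the other ER genes, they are up to 3 called in each list, with Xbp1, Atf4 and Ddit3. Creld2, Sec61b, Sec61g, Derl3, Sdc1 and Jchain were given library by library outside this rule. The set and the lists were chosen with earlier results of these data known. Intervals of a ratio are limma's.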

Additional observations from a re-analysis of the deposited data

How the results depend on the processing

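The 5 calls in the ER set kept their direction in 80 of 80 refits (5 genes, 16 alternatives) and lost significance in 17. Pseudocounts, filters, rescaling, robust moderation, edgeR and DESeq2 each kept the count of calls within 1.5 times that of all 6 libraries, and edgeR and DESeq2 called 1473 and 1630 of all genes. With a library left out, 1 to 5 genes of the set, 2 to 11 of the other ER genes and 496 to 1725 of all genes were called, and the median difference of the set was 0.017 to 0.092. With the plasma cell score as a covariate the counts were 0, 0 and 8. The score does not overlap between the groups, so in that fit it cannot be told apart from the genotype. With a replicate block, 6 genes of the set, 9 other ER genes and 1551 of all genes were called. Same-numbered libraries did not deviate together (correlations of -0.075, -0.02 and 0.147), so the numbers were not taken as pairs.

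Among the other ER genes, Srp19 and Mzb1 lost their calls under rescaling, and Ddit3 gained one without WT replicate 2. Signs of some uncalled genes turned. With the plasma cell score, log2 differences were 0.102 for Hspa5, -0.396 for Dnajc10, 0.171 for Calr, 0.163 for Txndc11 and -0.025 for Sec61b. They were -0.256 for Sec61g, -0.001 for Sec62, -0.025 for Ssr2, -0.037 for Rpn2 and 0.06 for Sel1l. They were also 0.115 for Edem3 and 0.105 for Eif2ak3, and -0.025 for the called Mzb1. Xbp1 gave 0.179 in that fit, but Xbp1 is itself among the markers averaged in the score. Its turn was therefore partly built in and is not a separate check of Xbp1. Rescaled without immunoglobulin genes, log2 differences were -0.006 for Hyou1, -0.011 for Rpn1 and -0.012 for Edem2. With edgeR they were 0.008 for Calr and 0.003 for P4hb, and with DESeq2 0.004 for Calr. With a library left out, ranges that crossed 0 were those of Hsp90b1 (-0.011 to 0.161), Hyou1 (-0.083 to 0.068), Dnajc10 (-0.017 to 0.167), Sdf2l1 (-0.112 to 0.2), Calr (-0.119 to 0.1), Pdia3 (-0.004 to 0.171), P4hb (-0.041 to 0.02), Txndc11 (-0.105 to 0.002), Rpn1 (-0.025 to 0.047), Sel1l (-0.072 to 0.005), Edem2 (-0.067 to 0.058), Edem3 (-0.095 to 0.018), Derl2 (-0.039 to 0.048), Derl3 (-0.161 to 0.135) and Xbp1 (-0.172 to 0.016). The cause of these turns was not tested. With 3 libraries a group, the lowest bound of a 95% interval among uncalled genes of the set was a ratio of 0.721 (Derl3) and the highest 1.546 (Sec61g).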
